A study of Mus musculus with 48 samples.

Results

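The genes of MHC class II antigen presentation were followed across the 8 groups of a liver RNA-seq study of mice of the FCG (core genotypes) model. The 10 genes were chosen by name, by what their products do, and were found by symbol among the 55414 genes of the count table. They are the classical chains H2-Aa, H2-Ab1 and H2-Eb1, the invariant chain Cd74, the transactivator Ciita, and the peptide-loading genes H2-DMa, H2-DMb1, H2-DMb2, H2-Oa and H2-Ob. The study set out to separate the influence of gonads from that of sex chromosomes on the liver under a lipid-rich diet. In this model the testis-determining gene Sry is deleted from the Y chromosome (XY-) and supplied as an autosomal transgene (SryTg), so that the type of gonad does not follow the sex chromosomes. XX and XY- mice without the transgene have ovaries (Ov) and XX;SryTg and XY-;SryTg mice have testes (Te), and XY- is written XY from here on. Each of these 4 genotypes was kept with intact gonads (Intact) or gonadectomized (GDX) at 75 days of age, which gave 8 groups of 6 mice, 48 livers in all. Every mouse was on a C57BL/6 background and ate a high-fat diet (HFD) with 60% of its calories from fat, started at 15 to 17 weeks of age. Per the labels, the HFD lasted 11 weeks in Intact and 15 weeks in GDX mice, so the removal of gonads cannot be told apart from 4 more weeks of HFD, nor from any other difference between the cohorts. The study's methods give other durations, with a longer gap between the cohorts, and the labels were used here. The design has no chow-fed mice, and in Te mice the transgene and the testes go together.

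MHC class II molecules carry peptides from the endosomes of antigen-presenting cells to the cell surface, where CD4+ T cells read them. An alpha and a beta chain pair in the endoplasmic reticulum (H2-Aa with H2-Ab1; H2-Eb1 is the beta chain of the second mouse isotype, whose alpha chain C57BL/6 mice do not make) and are held by the invariant chain encoded by Cd74. In late endosomes the DM heterodimer (H2-DMa with H2-DMb1 or H2-DMb2) exchanges the remnant of the invariant chain for peptide, and the DO heterodimer (H2-Oa with H2-Ob), best known from B cells, restrains DM. Ciita encodes the coactivator that switches these genes on, without binding DNA itself, on a platform formed by RFX at the X box and NF-Y at the Y box of their promoters. In liver, Kupffer cells, dendritic cells, B cells and sinusoidal endothelial cells are the known carriers of class II, and hepatocytes express little of it at rest.

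The promoter stretches below are shown because the X and Y boxes are what these genes share upstream of their start sites. RefSeq promoter sequences (GRCm38.p6, the 250 bases before to 50 bases after each start) were at hand for 7 of the 10 genes, with 8 entries in all. Stretches are written 5′ to 3′ on the strand of the gene, and capitals mark the matches to AAC, any 2 bases and ATGATGC (X box) and to GATTGG (Y box), letters that were chosen after the sequences had been seen.
H2-Eb1, chr17:34305763-34305816, plus strand: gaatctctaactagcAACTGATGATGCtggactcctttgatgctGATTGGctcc
H2-DMb1, chr17:34153085-34153138, plus strand: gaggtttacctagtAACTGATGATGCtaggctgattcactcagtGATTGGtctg
H2-DMb2, chr17:34145114-34145167, plus strand: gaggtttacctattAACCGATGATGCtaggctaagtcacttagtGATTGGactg
H2-Ob, chr17:34238803-34238856, plus strand: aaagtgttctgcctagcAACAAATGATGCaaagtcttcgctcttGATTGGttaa
H2-Aa, chr17:34287863-34287916, minus strand: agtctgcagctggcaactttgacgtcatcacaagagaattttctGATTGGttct
H2-Oa, chr17:34092291-34092344, plus strand: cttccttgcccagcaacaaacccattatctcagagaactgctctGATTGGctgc

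All of the stretches lie upstream of the annotated start. In H2-Eb1, H2-DMb1, H2-DMb2 and H2-Ob the X box match began 89, 92, 121 and 85 bases before the start, and the Y box match followed after a gap of 17, 18, 18 and 15 bases. H2-Aa and H2-Oa held the Y box letters 49 and 44 bases before the start and no exact match to the X box letters. Of the 2 starts of H2-DMa, 1 held GATTGG, 199 bases upstream, and neither held the X box letters. Over all 32851 RefSeq promoters of the same length, searched on both strands, 0.0396% held the X box letters, 16.1% held GATTGG, and 0.0122% held the X box followed by the Y box 10 to 25 bases on. Those last were 4 promoters, those of H2-Eb1, H2-DMb1, H2-DMb2 and H2-Ob. Because the letters were chosen after these sequences had been seen, this count is no measure of specificity. A match describes the letters in these windows and is not evidence of binding. H2-Ab1, Cd74 and Ciita were not among the promoter sequences used here.

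**Figure D1:**
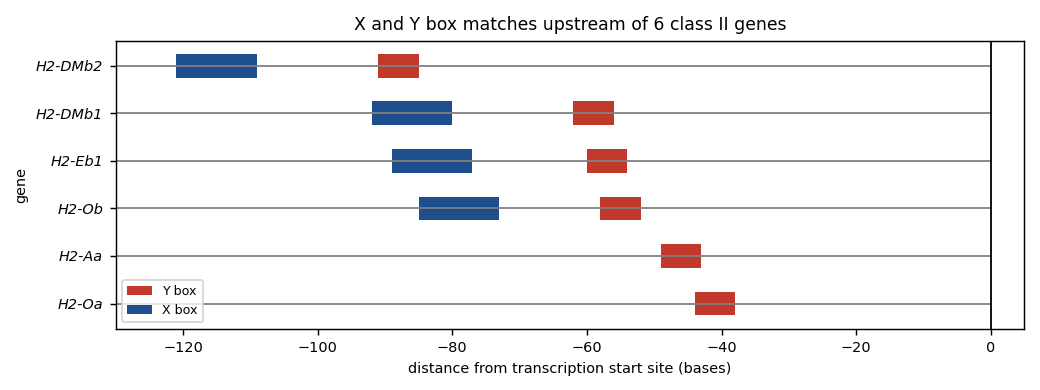
Positions of the X box (blue) and Y box (red) matches upstream of 6 class II genes; the x axis is the distance from the transcription start site in bases, with 1 row per gene and the start at 0. The 4 genes with both matches hold them 15 to 18 bases apart, X box first.

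The 48 libraries held 13071874 to 20045141 reads on genes, and levels are given as CPM, the read count scaled to this library total. Each library carries its own mouse ID, so replicates are separate mice. Xist was at 123 to 1138 CPM in XX and at 0.352 to 8.36 CPM in XY livers, and the Y-linked Ddx3y was at 46.0 CPM or more in every XY liver and at 3.82 CPM or less in every XX liver, so chromosomes matched the labels in all mice. The hepatocyte genes Alb, Apoa1, Ttr, Tf and Cps1 summed to 70964 to 141109 CPM, and all 5 were detected in every group. Reads outside genes made up 3.47 to 6.2% of a library in Intact and 8.52 to 11.28% in GDX mice, and the part of this in any difference between Intact and GDX was not tested. One liver stood apart before any comparison: in XX Te Intact mouse 14614 the Cd74 level was 185 CPM against 18.8 to 37.4 CPM in the other 5 mice of the group. It was the highest of its group in all 10 class II genes, and also in the summed markers of pan-leukocytes, Kupffer cells and monocyte-derived macrophages (3.89, 3.39 and 4.72 times the median of the other 5), while its hepatocyte sum was 0.73 times theirs. Class II counts that rest on this mouse are given with and without it, and the tests of the other gene lists with all mice only. In a further 4 livers, the XY Te Intact mice 10606, 20024, 70314 and 76370, 16.2 to 18.9% of the library mapped to several places and 11.7 to 16.5% was unmapped, against at most 14.4 and 11.0% in the 42 libraries of the other groups. The 2 remaining XY Te Intact libraries were at 11.0 and 13.6% for multimapping and at 8.42 and 9.65% for unmapped reads. The class II group orders, gonadal and castration effects and the chromosomal effect in Intact mice are also given without these 4 mice. That choice was made after seeing the data and leaves 2 mice in the group. Other results that use XY Te Intact, those of the other gene lists among them, are given with these mice kept.

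The class II transcripts differed in abundance over a wide range. Per kilobase of the longest annotated transcript, and as a median over the 48 livers, Cd74 was at 34.1 RPKM (CPM per kilobase), H2-Aa at 17.5, H2-Eb1 at 13.6 and H2-Ab1 at 13.4 RPKM. The DM genes H2-DMb1 and H2-DMa followed at 2.48 and 2.16 RPKM, whereas H2-Ob, H2-DMb2 and Ciita were at 0.497, 0.485 and 0.415 RPKM and H2-Oa was last at 0.106 RPKM. Invariant chain transcripts were thus the most abundant and those of the DO alpha chain the scarcest. H2-Oa was counted at 0 to 9 reads (0 to 0.557 CPM), where 3 reads give 0.15 to 0.23 CPM, and was removed by the filter on low counts, so 9 of the 10 genes were tested. H2-DMb1 and H2-DMb2, which lie next to each other on chromosome 17, share sequence: 27.1% of the 50-base windows of the H2-DMb1 transcript and 29.3% of those of H2-DMb2 also occur in another gene's transcript, above all in each other, and their counts are less certain for that reason. The other 8 genes shared no such window.

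Across the 8 groups, intact mice with testes stood lowest. By the mean log2 CPM, XY Te Intact was the lowest group for 7 of the 10 genes and XX Te Intact for the other 3. The highest group was a GDX group for each gene: XY Ov GDX for 4 genes, XX Ov GDX for 3 and XY Te GDX for 3. Scaled to library totals in this way, the median of all genes was itself 0.269 higher after ovariectomy and 0.268 higher after castration (log2). In the scaling used for the tests (TMM) these medians were 0.06 and 0.069. For H2-DMa, H2-DMb1 and H2-Ob the top GDX group led XY Ov Intact by 0.055, 0.08 and 0.104, less than the library-total shifts. Without the 4 libraries of high multimapping share, XY Te Intact was the lowest group for 5 genes, XX Te Intact for 4 and XX Ov GDX for 1, H2-Oa, and the part of that share in the low levels was not tested. For Cd74 the group medians were 66.7 CPM in XY Ov GDX, 90.9 in XX Ov GDX, 64.8 in XY Te GDX, 63.2 in XX Te GDX, 51.8 in XY Ov Intact, 46.9 in XX Ov Intact, 24.1 in XX Te Intact and 21.6 in XY Te Intact, in the order of their mean log2 CPM. Neighbours in these orders could hardly be separated: of the 70 neighbouring pairs over the 10 genes, 2 had a gap larger than the larger of both SDs, which were those below XY Ov Intact for H2-DMb2 and below XY Ov GDX for H2-Ob.

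**Figure D2:**
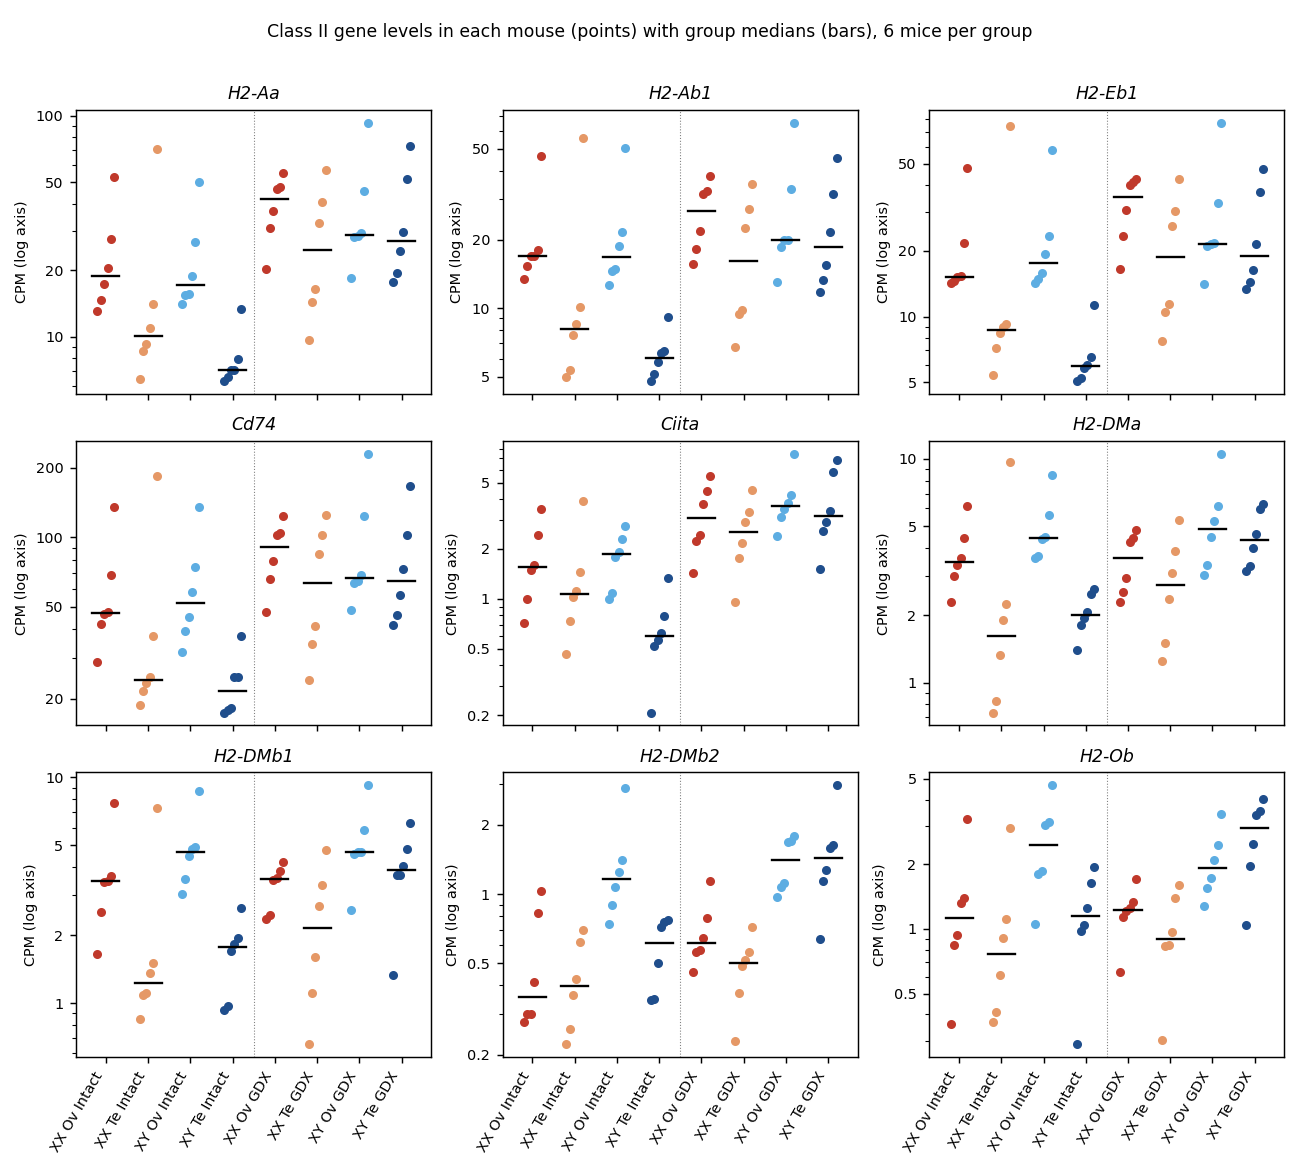
CPM on a log axis (y) of the 9 tested class II genes in each of the 8 groups (x), with 1 point per mouse and a bar at the median of 6 mice. The XY Te Intact points sit low for the classical chains and Cd74 (17.5 to 37.6 CPM for Cd74), and a single high point marks mouse 14614 in XX Te Intact.

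The gonadal effect asks how livers of mice with intact ovaries differed from those of mice with intact testes, each averaged over XX and XY. The class II genes were higher in Ov Intact than in Te Intact mice: 8 of the 9 tested genes passed an adjusted p of 0.05 (edgeR quasi-likelihood test, Benjamini-Hochberg over all 15414 genes tested), all of them higher with ovaries, where 25.3% of all tested genes passed in either direction and 14.1% were higher with ovaries. The median log2 fold change was 0.87 over the 9 genes and 0.04 over all genes. The spread in this test is shared with the GDX groups, whose mice differed less from each other. The chi-square per gene between mice of a group reached 307.75 in Intact and 40.34 in GDX groups. With only the intact groups fitted, 2 of the 9 genes passed (11.8% of all genes), with a median of 0.876. Fewer class II-bearing cells and less class II RNA per cell cannot be told apart in whole liver.

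H2-Ab1, the beta chain of the I-A molecule, illustrates the pattern, and it is also among the sex-biased genes that the study picked from wild-type mice of another experiment. XX Ov Intact mice were at 13.4, 15.3, 16.9, 16.9, 18.0 and 46.6 CPM and XY Ov Intact mice at 12.6, 14.5, 14.9, 18.7, 21.6 and 50.6 CPM. XX Te Intact mice were at 4.99, 5.33, 7.62, 8.50, 10.1 and 55.6 CPM and XY Te Intact mice at 4.78, 5.11, 5.77, 6.32, 6.48 and 9.12 CPM. Of the 12 mice with testes, 11 lay below every mouse with ovaries, and the exception, mouse 14614, lay above them all. The log2 fold change was 1.16 ± 0.32 (SE), or 2.23-fold (edgeR adjusted p = 0.00757). The other classical chains moved likewise. H2-Eb1 differed by 1.03 ± 0.34 on the log2 scale (edgeR adjusted p = 0.0235), again with 11 of 12 Te Intact mice below all Ov Intact mice, and H2-Aa, the I-A alpha chain, by 0.92 ± 0.32 (edgeR adjusted p = 0.0295), with 9 of 12.

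Cd74, whose product chaperones the new class II dimer, was at 28.8, 42.1, 46.5, 47.4, 69.0 and 135 CPM in XX Ov Intact and at 31.9, 39.4, 45.4, 58.1, 74.5 and 136 CPM in XY Ov Intact mice. With testes it was at 18.8, 21.7, 23.4, 24.8, 37.4 and 185 CPM in XX and at 17.5, 18.0, 18.4, 24.8, 24.9 and 37.6 CPM in XY mice. Both ovary-bearing groups sat above most mice with testes, with an overlap between 28.8 and 37.6 CPM and at mouse 14614. The difference was 0.84 ± 0.31 (log2; edgeR adjusted p = 0.0432). Ciita, the transactivator, was at 0.721 to 3.48 CPM in XX Ov Intact, 0.996 to 2.73 CPM in XY Ov Intact, 0.463 to 3.87 CPM in XX Te Intact and 0.207 to 1.34 CPM in XY Te Intact mice, and was 0.83 ± 0.29 higher with ovaries (log2; edgeR adjusted p = 0.0319).

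Among the peptide-loading genes the DM chains were higher with ovaries. H2-DMb1 differed by 1.17 ± 0.29 (log2; edgeR adjusted p = 0.00236), from 0.848 to 7.32 CPM in XX Te Intact and 0.932 to 2.63 CPM in XY Te Intact to 1.65 to 7.72 CPM in XX Ov Intact and 3.05 to 8.72 CPM in XY Ov Intact mice. H2-DMa, its alpha-chain partner, rose by 0.87 ± 0.27 (edgeR adjusted p = 0.0143), and 9 of 12 Te Intact mice lay below all Ov Intact mice. H2-DMb2 was 0.76 ± 0.25 higher (edgeR adjusted p = 0.0215). H2-Ob, the DO beta chain, differed by 0.75 ± 0.30 and did not pass (edgeR adjusted p = 0.0575). H2-Oa had medians of 0.106 and 0.173 CPM in XX and XY Ov Intact and of 0.154 and 0.066 CPM in XX and XY Te Intact mice, with 0 reads in some mice of 3 of these 4 groups.

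A few livers weighed on this comparison. Without mouse 14614 all 9 tested genes passed, with a median log2 fold change of 1.33, and H2-Ab1 then differed by 1.65 ± 0.28. Without XY Ov Intact mouse 69065, the highest of its group for 9 of the 10 genes, 3 genes passed (H2-DMb1, H2-Ab1 and H2-DMa), and without XX Ov Intact mouse 81790 again 3. Without XX Te Intact mouse 11587, 18333 or 98893 it was 5. The 8 genes called with all mice kept their sign in each of these fits. With both 14614 and 69065 left out all 9 passed (26.6% of all genes), with a median of 1.20. In the fit of all 48 mice 25.3% of all genes had passed. Here and below, a count with a single mouse left out has the share of its own fit beside it only where printed. Without the 4 XY Te Intact libraries of high multimapping share 4 passed (36.5% of all genes), H2-Ab1 at 1.10 ± 0.43, H2-DMb1 at 1.03 ± 0.37, H2-DMa at 0.91 ± 0.35 and H2-DMb2 at 0.77 ± 0.30, and the median over the 9 genes was 0.81.

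In XY mice 8 of 9 genes were higher in Ov Intact than in Te Intact (15.5% of all genes called, 8.15% as higher), with H2-Eb1 at 1.78 ± 0.50, H2-Ab1 at 1.73 ± 0.47 and Cd74 at 1.35 ± 0.45 on the log2 scale (edgeR adjusted p = 0.0114, 0.0086 and 0.0354). For H2-Aa, H2-Ab1, H2-Eb1, H2-DMa and H2-DMb1 all 6 XY Ov Intact mice lay above all 6 XY Te Intact mice. How many of all genes separated so fully was not counted, so this is not shown to be particular to class II. In XX mice 0 of 9 passed (5.82% of all genes called), with 1 gene, H2-DMb1, at an unadjusted p under 0.05 and 0 by the DESeq2 Wald test, and H2-Ab1 at 0.58 ± 0.45. The count in XX mice rested on mouse 14614: without it, 6 of 9 genes passed in XX mice (8.74% of all genes), H2-Ab1 at 1.56 ± 0.41 (edgeR adjusted p = 0.0102), H2-Eb1 at 1.47 ± 0.42, Cd74 at 1.29 ± 0.39, H2-Aa at 1.31 ± 0.40, H2-DMa at 1.47 ± 0.32 and H2-DMb1 at 1.68 ± 0.38. The XY count rested in part on mouse 69065, without which 1 gene, H2-DMb1, passed, and it was 4 without XY Te Intact mouse 76370 and 5 without mouse 99557. Without the 4 XY Te Intact libraries of high multimapping share 0 of 9 genes passed the edgeR test in XY mice (20.6% of all genes), with 5 at an unadjusted p under 0.05, H2-Ab1 at 1.63 ± 0.73, H2-Eb1 at 1.60 ± 0.78 and Cd74 at 1.13 ± 0.69. Both remaining XY Te Intact mice lay below all 6 XY Ov Intact mice for H2-Aa, H2-Ab1, H2-Eb1, H2-DMa and H2-DMb1, and the part of the multimapping share in the difference was not tested. The difference between the effect in XY and in XX mice passed for 0 of 9 genes (0% of all genes), with 1 gene, H2-Eb1, at an unadjusted p under 0.05 and 0 by DESeq2. For H2-Eb1 it was 1.49 ± 0.68 (edgeR adjusted p = 0.761), and the median over the 9 genes was 0.91, or 0.15 without mouse 14614.

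**Figure D3:**
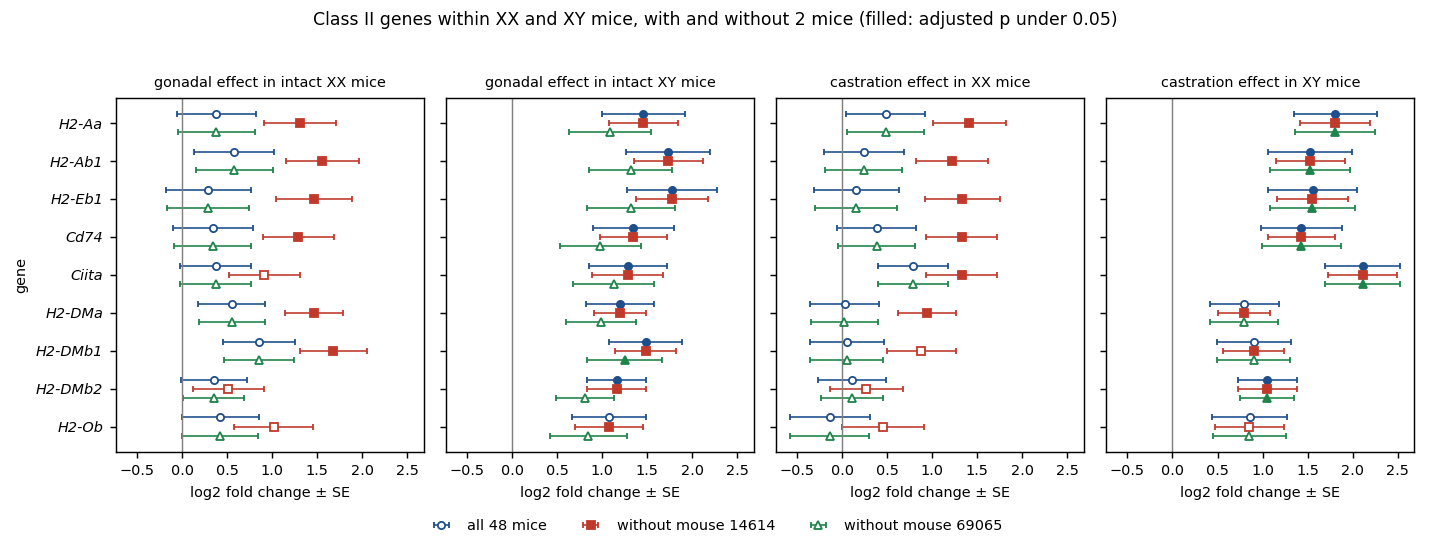
Log2 fold change ± SE (x) of the 9 tested class II genes (y) within XX or XY mice, for Ov Intact minus Te Intact and for Te GDX minus Te Intact, in the fit of all 48 mice (blue), without mouse 14614 (red) and without mouse 69065 (green); filled symbols have an adjusted p under 0.05. In XX mice 0 of 9 symbols are filled with all mice and 6 without mouse 14614, for both comparisons.

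The castration effect compares Te GDX with Te Intact mice, and so shares the Te Intact livers with the gonadal effect. The classical chains, Cd74 and Ciita were higher after castration: 6 of the 9 tested genes passed (edgeR quasi-likelihood test), all of them higher, where 63.3% of all genes passed in either direction and 33.4% were higher. The median log2 fold change was 0.86 over the 9 genes and 0.07 over all genes. Ciita differed by 1.45 ± 0.28 (log2), or 2.73-fold (edgeR adjusted p = 3.03e-05). It was at 0.958, 1.75, 2.15, 2.90, 3.32 and 4.53 CPM in XX Te GDX and at 1.51, 2.55, 2.88, 3.38, 5.76 and 6.82 CPM in XY Te GDX mice. In Te Intact it was at 0.463, 0.735, 1.03, 1.11, 1.45 and 3.87 CPM in XX and at 0.207, 0.524, 0.566, 0.626, 0.786 and 1.34 CPM in XY mice. All 12 castrated mice lay above the median of the intact mice with testes, and in XY mice the groups did not overlap.

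H2-Aa, Cd74, H2-Ab1 and H2-Eb1 were higher after castration by 1.14 ± 0.32, 0.91 ± 0.31, 0.88 ± 0.32 and 0.86 ± 0.34 on the log2 scale (edgeR adjusted p = 0.00195, 0.0116, 0.016 and 0.0279). H2-Aa was at 9.64, 14.3, 16.5, 32.8, 40.7 and 56.9 CPM in XX Te GDX and at 17.6, 19.4, 24.5, 29.7, 51.6 and 72.8 CPM in XY Te GDX mice, against 6.44 to 14.1 CPM in 5 of the XX Te Intact mice and 70.4 CPM in mouse 14614, and 6.28 to 13.3 CPM in the XY Te Intact mice. In XX mice 5 of the 6 castrated livers lay above the 5 lower intact ones and all 6 lay below mouse 14614, and in XY mice all 6 castrated livers lay above all 6 intact ones. H2-DMb2 passed narrowly at 0.58 ± 0.25 (edgeR adjusted p = 0.0417). H2-DMa, H2-DMb1 and H2-Ob had log2 fold changes of 0.41 ± 0.27, 0.48 ± 0.29 and 0.36 ± 0.30 and did not pass (edgeR adjusted p = 0.179, 0.147 and 0.301). Without mouse 14614, 8 genes passed, H2-DMa and H2-DMb1 among them at 0.87 ± 0.22 and 0.89 ± 0.26. In the fit of all mice 63.3% of all genes had passed and 33.4% were higher. Without the 4 XY Te Intact libraries of high multimapping share 2 genes passed (40.3% of all genes), Ciita at 1.27 ± 0.36 and H2-Aa at 1.04 ± 0.42.

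In XY mice castration called the same count, 6 of 9 (56.7% of all genes called, 28% as higher), with Ciita at 2.11 ± 0.42, H2-Aa at 1.81 ± 0.46, H2-Eb1 at 1.56 ± 0.50 and Cd74 at 1.43 ± 0.45 on the log2 scale. For H2-Aa, H2-Ab1, H2-Eb1, Cd74, Ciita and H2-DMa every XY Te GDX mouse lay above every XY Te Intact mouse. The share of all genes that separated in this way was not counted, so this too is not shown to be particular to class II. Without the 4 libraries of high multimapping share 1 gene passed in XY mice (10.7% of all genes), Ciita at 1.80 ± 0.61, with H2-Aa at 1.62 ± 0.72 and Cd74 at 1.25 ± 0.70. In XX mice 0 of 9 passed (37.1% of all genes called), with 1, Ciita, at an unadjusted p under 0.05 and 0 by the DESeq2 Wald test. Without mouse 14614 the count in XX mice was 6 (32.1% of all genes), with Ciita and Cd74 both at 1.33 (SE 0.39 and 0.40) and H2-Aa at 1.41 ± 0.40.

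The ovariectomy effect, Ov GDX minus Ov Intact, passed for 1 of the 9 genes, Ciita (69.4% of all genes passed in either direction and 36% were higher). Ciita was at 1.44, 2.23, 2.43, 3.75, 4.43 and 5.48 CPM in XX Ov GDX and at 2.38, 3.11, 3.48, 3.79, 4.21 and 7.44 CPM in XY Ov GDX mice, against 0.721 to 3.48 CPM and 0.996 to 2.73 CPM in the intact groups, and differed by 0.83 ± 0.26 (log2; edgeR adjusted p = 0.00551). The transactivator was higher after removal of either type of gonad, and its target H2-Ab1 was at 0.13 ± 0.31 after ovariectomy (edgeR adjusted p = 0.733). H2-Aa, H2-Eb1 and Cd74 were at 0.56 ± 0.31, 0.28 ± 0.33 and 0.38 ± 0.31, and H2-DMa, H2-DMb1, H2-DMb2 and H2-Ob at −0.20 ± 0.26, −0.25 ± 0.27, near 0 (SE 0.27) and −0.45 ± 0.29, none of which passed. The count was 2 without XY Ov Intact mouse 69065, where H2-Aa also passed at 0.74 ± 0.31, and 2 without XX Ov Intact mouse 81790.

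Whether castration and ovariectomy acted differently was tested directly. The difference, castration minus ovariectomy, passed for 0 of the 9 genes with all mice (5.6% of all genes), with 0 at an unadjusted p under 0.05 and 0 by DESeq2. All 9 differences were above 0, from 0.52 ± 0.44 for Cd74 to 0.81 ± 0.42 for H2-Ob, with H2-Ab1 at 0.76 ± 0.45 and H2-DMb1 at 0.72 ± 0.40. Without mouse 14614, 4 genes passed: H2-Ab1 at 1.25 ± 0.38, H2-Eb1 at 1.16 ± 0.39, H2-DMb1 at 1.14 ± 0.34 and H2-DMa at 1.07 ± 0.29 (edgeR adjusted p = 0.0291, 0.0498, 0.0287 and 0.0171). The share of all genes in that fit is not given here. With mouse 69065 left out as well the count was 1 (7.9% of all genes).

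After gonadectomy no class II gene was called between Ov GDX and Te GDX mice. In this comparison 0 of 9 genes passed (0.0908% of all genes), with 0 at an unadjusted p under 0.05 and 0 by DESeq2. The log2 differences ran from −0.07 ± 0.30 for H2-Ob to 0.46 ± 0.33 for H2-Eb1, with H2-Ab1 at 0.40 ± 0.31 and Cd74 at 0.32 ± 0.31. The Cd74 medians were 90.9 and 66.7 CPM in XX and XY Ov GDX and 63.2 and 64.8 CPM in XX and XY Te GDX mice, with ranges that overlapped from 48.3 to 123 CPM in all 4 groups.

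**Figure D4:**
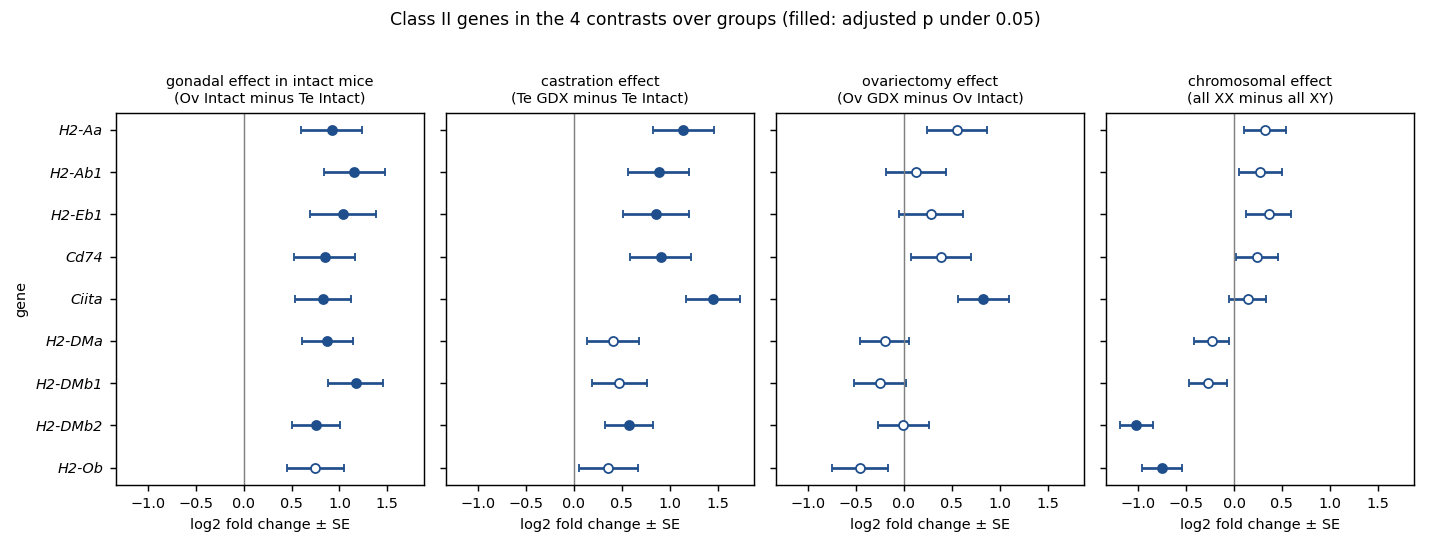
Log2 fold change ± SE (x) of the 9 tested class II genes (y) in the gonadal, castration, ovariectomy and chromosomal effects, from the fit of all 48 mice; filled symbols have an adjusted p under 0.05. Counts of filled symbols are 8, 6, 1 and 2, and the 2 filled symbols of the chromosomal effect, H2-DMb2 and H2-Ob, lie below 0 (higher in XY).

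The chromosomal effect, all XX minus all XY mice, was called in 2 of the 9 tested genes, H2-DMb2 and H2-Ob, both of them lower in XX. Over all genes 36.7% passed in either direction and 14.8% were lower in XX, so the 2 of 9 class II genes lay below the first share and not far from the second. H2-DMb2 differed by −1.02 ± 0.17 on the log2 scale, a 2.02-fold higher level in XY (edgeR adjusted p = 4.13e-06). Its levels were 0.223 to 1.14 CPM in the 24 XX livers and 0.346 to 2.97 CPM in the 24 XY livers, and 1 XX liver lay above the XY median. H2-Ob, restraining DM with H2-Oa, differed by −0.75 ± 0.21 (edgeR adjusted p = 0.00401), with medians of 1.13 and 0.760 CPM in XX Ov and XX Te Intact, 2.46 and 1.15 CPM in XY Ov and XY Te Intact, 1.23 and 0.902 CPM in XX Ov and XX Te GDX and 1.92 and 2.93 CPM in XY Ov and XY Te GDX mice. In every pair of groups alike in gonad and surgery the XY median was the higher one for both genes. H2-Oa, untested, had its highest median, 0.398 CPM, in XY Te GDX mice.

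The other class II genes were not called with all mice. H2-Aa, H2-Ab1, H2-Eb1, Cd74 and Ciita had XX minus XY differences of 0.32 ± 0.22, 0.27 ± 0.22, 0.36 ± 0.24, 0.24 ± 0.22 and 0.14 ± 0.19, and H2-DMa and H2-DMb1 of −0.23 ± 0.19 and −0.27 ± 0.20, none of which passed. Without mouse 14614, H2-DMa and H2-DMb1 also passed as lower in XX, at −0.46 ± 0.15 and −0.47 ± 0.17 (edgeR adjusted p = 0.0111 and 0.0254), and H2-Aa, H2-Ab1, H2-Eb1, Cd74 and Ciita were at most 0.09. In Intact mice H2-DMb2 alone passed (−0.90 ± 0.25, edgeR adjusted p = 0.0111; 10.7% of all genes called, 6.42% as lower), a share near that of all genes, joined by H2-Ob without mouse 14614. Without the 4 XY Te Intact libraries of high multimapping share the count in Intact mice was 0, with H2-DMb2 at −0.90 (edgeR adjusted p = 0.0586), the 1 gene at an unadjusted p under 0.05. In GDX mice H2-DMb2 and H2-Ob both passed (34.3% of all genes called, 14.8% as lower), at −1.13 ± 0.23 and −0.93 ± 0.30. The low counts and shared sequence of H2-DMb2 named above bear on its level, and their part in the difference was not tested.

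Leukocyte markers were lower in XX than in XY livers. The pan-leukocyte genes Ptprc (CD45), Laptm5 and Coro1a summed to 18.7 to 92.8 CPM in XX livers, with a median of 37.4, and to 31.7 to 702 CPM in XY livers, with a median of 222. All 3 were lower in XX, Ptprc by −2.54 ± 0.17 and Coro1a by −2.92 ± 0.21 on the log2 scale. The summed CPM of H2-Aa, H2-Ab1, H2-Eb1 and Cd74, in contrast, had medians of 98.9 in XX and 101 in XY livers, so that the ratio of class II to pan-leukocyte sums was 1.77 to 5.23 in XX and 0.258 to 1.34 in XY livers, with no overlap. Other lists moved in the same direction as Ptprc: 6 of 7 tested B cell markers, 6 of 8 Kupffer cell markers, 5 of 6 T cell markers and 4 of 9 dendritic cell markers were lower in XX and 0 were higher, and among the 8 markers of monocyte-derived and lipid-associated macrophages 4 were lower and 2 higher. Of all genes 36.7% were called in this comparison and 14.8% were lower in XX. Summed levels were 6.64 to 91.2 CPM in XX and 9.88 to 216 CPM in XY for B cell markers, and 8.70 to 27.1 and 11.3 to 206 CPM for dendritic cell markers. None of the matched markers of these lists was at 0 in all mice of a group, and the part of leukocyte content in the H2-DMb2 and H2-Ob differences was not tested.

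Leukocyte markers differed in the gonadal and castration comparisons too. In Ov Intact against Te Intact mice 2 of 3 pan-leukocyte genes were higher, Ptprc by 0.84 ± 0.23 and Coro1a by 0.93 ± 0.28, as were 3 of 7 B cell markers, 3 of 8 Kupffer cell markers, 3 of 8 monocyte-derived macrophage markers, 1 of 9 dendritic cell markers and 5 of 6 T cell markers, Cd3d by 2.76 ± 0.39 and Trac by 2.72 ± 0.38. Cd4, named after its value was seen, was lower at −0.88 ± 0.28. Of all genes 25.3% were called in this comparison and 14.1% were higher, and the dendritic cell list lay below both shares. The pan-leukocyte sum was 29.0 to 270 CPM in Ov Intact and 20.1 to 181 CPM in Te Intact livers, and the T cell sum 2.11 to 14.1 and 1.05 to 4.09 CPM. Ptprc and Laptm5 were 0.87 ± 0.23 and 0.88 ± 0.23 higher in Te GDX than in Te Intact mice. In that comparison 3 of 9 dendritic cell markers, 2 of 7 B cell markers and 1 of 6 T cell markers were higher and 0 lower, 3 of 8 monocyte-derived macrophage markers were higher and 1 lower, and 1 of 8 Kupffer cell markers was higher and 1 lower, beside 63.3% of all genes called and 33.4% higher, so the share called in each of these 5 lists was below that of all genes. The pan-leukocyte sum in Te GDX livers was 18.7 to 702 CPM. In XX livers its median was 38.7 CPM in Ov Intact, 26.3 in Te Intact and 37.4 in Te GDX mice, and in XY livers 216, 87.8 and 346 CPM. The XY Te Intact mice of high multimapping share, 20024, 76370, 70314 and 10606, were at 31.7, 37.1, 39.0 and 137 CPM. Mice 99557 and 89033 of that group were at 154 and 181 CPM. These marker comparisons are not given without those libraries or without mouse 14614. None of the 5 hepatocyte markers passed in the gonadal effect, and after castration 2 were higher and 1 lower. The part of these markers in the class II differences was not tested.

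**Figure D5:**
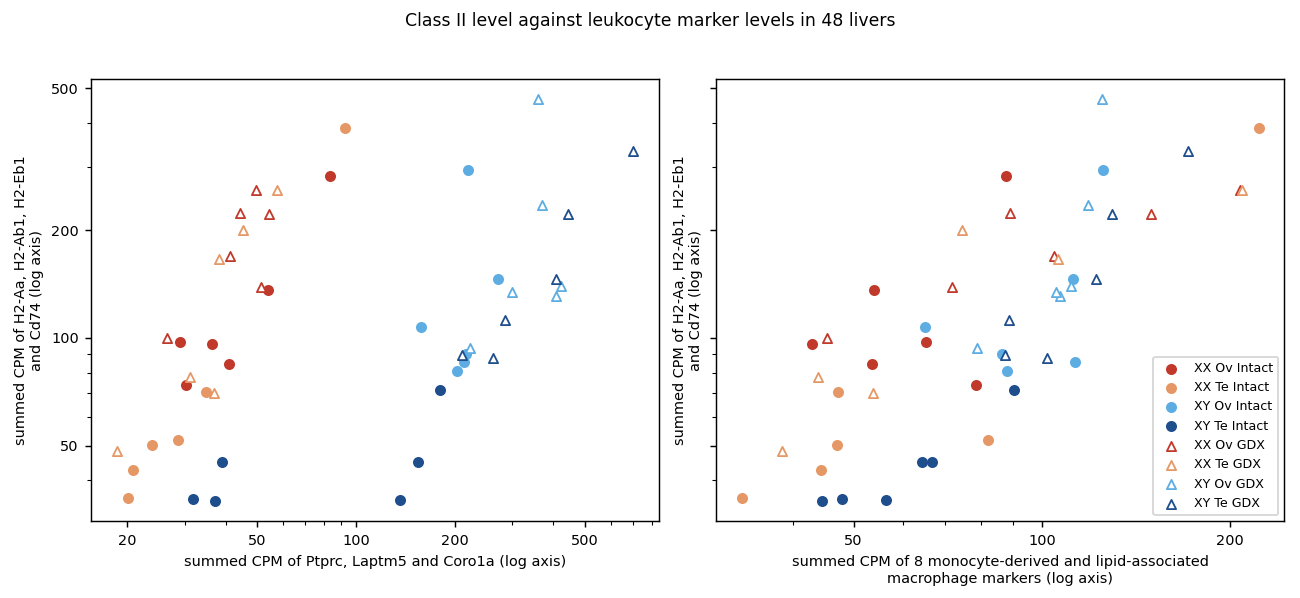
Summed CPM of H2-Aa, H2-Ab1, H2-Eb1 and Cd74 (y, log axis) against the summed CPM of 3 pan-leukocyte genes (left) and of 8 macrophage markers (right; x, log axes), with 1 point per liver coloured by genotype and gonad, circles for Intact and triangles for GDX. On the left the class II sum was 1.77 to 5.23 times the marker sum in XX and 0.258 to 1.34 times in XY livers. The XY livers within the XX range of pan-leukocyte sums (18.7 to 92.8 CPM) were mice 20024, 70314 and 76370. These are XY Te Intact libraries of high multimapping share, and XX livers of like sum lie above them. On the right XX and XY livers overlap.

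Over the 48 livers the summed log2 level of the monocyte-derived and lipid-associated macrophage markers (Ccr2, Ly6c2, Cx3cr1, Trem2, Gpnmb, Cd9, Spp1 and Lgals3) correlated best with class II of the 9 marker lists, with a Pearson r of 0.762 with the mean log2 CPM of H2-Aa, H2-Ab1, H2-Eb1 and Cd74, against 0.347 for the pan-leukocyte and 0.374 for the Kupffer cell markers. B cell and T cell markers came next, at 0.471 and 0.439. With group means removed, the monocyte-derived list was at 0.805, B cell markers at 0.657, pan-leukocyte at 0.641 and Kupffer cell markers at 0.598. Hepatocyte markers were then at −0.053. These are descriptions over livers that share depth and groups.

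Other parts of the class II pathway, from lists of named genes, were also measured. Of 8 enzymes and regulators that process the invariant chain or turn class II over, 5 were higher in Ov Intact than in Te Intact mice, among them Ctss, the cathepsin that trims the invariant chain (0.97 ± 0.21), Ctsb (0.38 ± 0.07) and Marchf1, the ubiquitin ligase that sends surface class II to degradation (0.98 ± 0.21), while its relative Marchf8 was lower (−0.29 ± 0.07). The median of the 8 was 0.36. After castration Ctsb was higher (0.44 ± 0.07) and Marchf8 lower (−0.91 ± 0.07), the others not passing, and after ovariectomy 3 fell and 0 rose, Marchf1 by 0.79 and Marchf8 by 0.58 on the log2 scale. In XX against XY mice Ctss (−1.496 ± 0.149), Marchf1 (−1.97 ± 0.15) and Ifi30, the lysosomal thiol reductase (−1.11 ± 0.12), were lower, together with 2 further genes, and 2 were higher. Of all genes 25.3% were called in the gonadal, 63.3% in the castration, 69.4% in the ovariectomy and 36.7% in the chromosomal effect.

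Of the 7 genes for RFX, NF-Y and CREB subunits 1 was higher in Ov Intact mice (Creb1, 0.20 ± 0.06) and 0 were lower. After castration 3 were higher, Rfx5 (0.58 ± 0.14), Nfya (0.57 ± 0.10) and Nfyc (0.32 ± 0.07), and 2 were lower, and after ovariectomy the same 3 were higher, Rfx5 by 0.67 ± 0.14, Nfya by 0.48 ± 0.10 and Nfyc by 0.27 ± 0.07, and 1, Creb1, was lower. Over all genes 25.3% passed in the gonadal effect, 63.3% after castration and 69.4% after ovariectomy, beside 1, 5 and 4 of these 7 genes. Of the interferon gamma pathway, the main known inducer of Ciita outside professional antigen-presenting cells, Ifng and Socs1 were too scarce to be tested. Of the 5 tested genes given here, 2 were higher in Ov Intact mice, Ifngr1 (0.55 ± 0.11) and Irf1 (0.46 ± 0.09), and 0 were lower. After castration Jak1 (0.38 ± 0.09) and Ifngr1 (0.25 ± 0.11) were higher, and after ovariectomy Jak1 was higher (0.45 ± 0.09) and Ifngr1 (−0.35 ± 0.11) and Irf1 (−0.28 ± 0.09) were lower.

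Class I molecules present cytosolic peptides in most cells. In Ov Intact mice 7 of their 14 tested genes were higher and 0 lower (25.3% of all genes called and 14.1% higher). The immunoproteasome subunits Psmb8 (0.65 ± 0.13) and Psmb10 (0.58 ± 0.09) led, and the median over the list was 0.23. After castration 11 of 14 were higher and 0 lower (63.3% of all genes called and 33.4% higher), with a median of 0.48, among them H2-Q4 (0.82 ± 0.12), the peptide transporter subunit Tap2 (0.79 ± 0.14) and Nlrc5, the class I counterpart of Ciita (0.79 ± 0.10). After ovariectomy 8 were higher and 3 lower (69.4% of all genes called and 36% higher), with Tap2 at 0.90 ± 0.14 and Nlrc5 at 0.61 ± 0.10. The difference between the class I and class II lists was not tested. Of 4 co-stimulatory genes, Cd86 (1.11 ± 0.27), Cd40 (0.80 ± 0.29) and Icam1 (0.61 ± 0.18) were higher in Ov Intact mice, whereas Cd86 was lower after both castration (−1.45 ± 0.28) and ovariectomy (−2.27 ± 0.28). Icam1 was higher after castration (0.67 ± 0.18), and Cd40 was lower after ovariectomy (−1.02 ± 0.29). H2-Ea and H2-Eb2, the other class II genes listed, did not pass the filter on low counts.

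The class II genes varied together from liver to liver. Over the 48 livers the log2 CPM of H2-Aa, H2-Ab1, H2-Eb1 and Cd74 each correlated with the mean of the other 3 at a Pearson r of 0.978 to 0.987, and with group means removed at 0.971 to 0.989. Against the mean of these 4, Ciita was at 0.873, H2-DMa at 0.831 and H2-DMb1 at 0.811, and H2-Ob and H2-DMb2, the genes of the chromosomal effect, at 0.505 and 0.456. H2-DMb2 and H2-Ob correlated with each other at 0.701. Among 12941 other genes with a mean of at least 1 CPM, the 10 with the most similar pattern over the 48 livers were Pak1 (0.828), Vcam1 (0.824), Blnk (0.803), Gbp2 (0.798), Cxcl9 (0.786), Mlkl (0.773), Pgm1 (0.764), Colec11 (0.762), Ccr2 (0.762) and Olfml3 (0.761). With group means removed they were Capg (0.885), Irf8 (0.861), Vim (0.848), Itm2c (0.845), Cxcl9 (0.831), Lpl (0.825), Marcks (0.824), Vcam1, Cxcl16 and Fblim1 (each 0.818). Cxcl9 and Vcam1 were in both sets. These correlations rest on the high livers named above as well as on the groups, and carry no test.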

How the data were processed

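RNA from 48 snap-frozen livers was sequenced with the KAPA mRNA HyperPrep kit. The authors aligned reads to GRCm39 and deposited whole-number counts per gene, made with STAR 2.7.10a; the annotation and the strand setting are not given in the sources used here, and the deposited counts were not normalized. The submitters' processing notes also name DESeq2 1.36.0. The 4 summary lines of the table were left out of library sizes; multimapping reads, part of them, made up 8.59 to 18.9% of a library and are not in the gene counts. Symbols came from a gene name table (31020 of 55414 IDs, 56%), and 109 of the 111 genes of the lists were matched.

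Counts were tested with edgeR 4.0.16 in R 4.3.3 (TMM, filterByExpr, glmQLFit with robust fitting, glmQLFTest) in 1 model of 8 group means over all 48 mice, with Benjamini-Hochberg adjustment over the 15414 genes kept and a threshold of 0.05; SE is that of the log2 fold change. Levels are CPM of reads on genes; log2 CPM for correlations used a prior count of 2, group orders log2(CPM + 0.1), and marker sums log2(sum + 0.5). RPKM used the longest transcript of GENCODE vM1. The test was tested on simulated counts: in the gonadal effect 99% of genes changed by 1.5 on the log2 scale and 80.4% of those changed by 1 were recovered, of 15048 genes. Of 185 genes called there, 11 had not been changed. The simulation gave each gene the same spread in every group and held no outlying mice, so its recovery need not hold for the intact groups. Of 120 pairs of mice within groups none agreed within sampling noise (chi-square per gene 7.74 or more). Alternatives were DESeq2 1.42.0 (its size factors and its Wald test), library totals, other filters, only the groups compared, 1 surrogate variable (sva 3.50.0), a fold change above 1.5 and each mouse left out.

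The 10 genes are all named. From other lists genes were named that passed in the gonadal, ovariectomy or castration effect, up to 4 per list. One gene of the interferon gamma list is not reported here. The members and lists were chosen with earlier results of these data known. Floors of 3 reads cover counting error only.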

Additional observations from a re-analysis of the deposited data

Results flagged for a closer look

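Over 80 sets of 1 gene in 1 group of 6 mice, the highest mouse stood apart from the others in 24. There its gap to the next mouse, as a share of the range of the group, exceeded Dixon's 95% critical value. That value assumes normal data and was applied to raw CPM. The genes also vary together from liver to liver, so the sets are not independent and their count cannot be set against chance. The 24 fell on 5 mice. XX Te Intact mouse 14614 accounted for 8: Cd74 184.9 CPM, H2-Eb1 74.7, H2-Aa 70.4, H2-Ab1 55.6, H2-DMa 9.69, H2-DMb1 7.32, Ciita 3.87 and H2-Ob 2.96 CPM, with the nearest other mouse at 37.4 CPM for Cd74 and 9.20 CPM for H2-Eb1. XX Ov Intact mouse 81790 accounted for 5: H2-Aa 52.8, H2-Eb1 48.1, H2-Ab1 46.6, H2-DMb1 7.72 and H2-Ob 3.26 CPM. XY Ov Intact mouse 69065 also had 5: H2-Eb1 57.9, H2-Ab1 50.6, H2-Aa 50.2, H2-DMb1 8.72 and H2-DMb2 2.91 CPM. XY Ov GDX mouse 76112 had 3, H2-Aa 93.2, H2-Eb1 77.2 and Ciita 7.44 CPM, and so had XY Te Intact mouse 89033, at Cd74 37.6, H2-Aa 13.3 and H2-Eb1 11.3 CPM.

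In mouse 14614 monocyte-derived macrophage, pan-leukocyte and Kupffer cell markers were 4.72, 3.89 and 3.39 times the median of the other 5 mice. In mouse 81790 T cell and pan-leukocyte markers were 2.81 and 2.30 times that median, and in mouse 69065 B cell markers were 3.45 times and pan-leukocyte markers 1.03 times. In mouse 76112 pan-leukocyte markers were 0.97 times and T cell markers 2.07 times, and in mouse 89033 pan-leukocyte markers were 4.64 times. The libraries of the 5 mice held 16266313 to 19402886 reads, within the range of the others.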

How the results depend on the processing

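No paired analysis was possible because the labels carry mouse IDs and no replicate number shared between groups. No log2 fold change of a called gene changed sign under any alternative. DESeq2 size factors, the DESeq2 Wald test and leaving out mouse 95271 kept all 13 counts within 1.5 times. So did the cut at a fold change of 1.5, which was added to the same adjusted p and is no separate test. Of the called fold changes only that of H2-DMb2 after castration, 1.495, lay below this cut. Other counts moved as follows, with the share of all genes called in the same fit in parentheses. Scaling by library totals gave 5 genes for the gonadal effect in intact mice (20.5%) and 2 for ovariectomy (72.2%). No filter beyond 1 count gave 4 for the gonadal effect (8.35%) and 4 in XY mice (4.78%). At least 10 counts in every mouse, a filter that 6 of the 10 genes passed, gave 0 for XX against XY, whether over all, Intact or GDX mice, and 0 for ovariectomy; it removed H2-DMb2, H2-Ob and Ciita, the genes called there, so these 0 counts say nothing about them. Fitting only the groups compared gave 2 for the gonadal effect (11.8%) and 2 for ovariectomy (70.6%). One surrogate variable gave 2 for castration (54.9%) and 3 for castration in XY mice (40.1%), both below the share of all genes. Leaving out each mouse in turn gave 3 to 9 for the gonadal effect (0 to 6 in XX and 1 to 9 in XY mice), 2 to 4 for the chromosomal effect (1 to 2 in Intact mice), 1 to 2 for ovariectomy, 4 to 8 for castration (0 to 6 in XX mice) and 0 to 4 for castration minus ovariectomy. No share of all genes is given for these ranges. The next alternatives were chosen after seeing the data. Leaving out mice 14614 and 37366 (an XX mouse with some Y-linked reads) gave 5 for the gonadal effect in XX mice (8.43%) and 6 for castration in XX mice (21.9%). Leaving out 14614 and 69065 gave 6 (8.63%) and 6 (32%), 5 for the gonadal effect in XY mice (12.4%) and 1 for castration minus ovariectomy (7.9%). Leaving out the 4 XY Te Intact mice of high multimapping share gave 4 for the gonadal effect (36.5%) and 0 in XY mice (20.6%). It gave 2 for castration (40.3%), 1 in XY mice (10.7%) and 0 for XX against XY in Intact mice (8.13%). Fold changes of the called genes kept their direction, with 2 mice left in the group. The cause was not tested. Depth limits H2-Oa, H2-DMb2, H2-Ob and Ciita, at few reads per library.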
